A study of Mus musculus with 2 samples.

Results

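The clustered protocadherin genes of the mouse were described through the Tdg peaks of 1 library. The members are all peaks of the Bio-Tdg list that overlap the window chr18:37080000-38010000 in the mouse build mm9, a stretch of 930 kb named for the Pcdha, Pcdhb and Pcdhg clusters. They number 84, out of 2039 peaks on chromosome 18 and 72970 in the list. The position alone chose them, and none crosses an edge of the window.

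The cells were E14, a line of mouse embryonic stem cells. The series has 2 ChIP-seq libraries, one from cells labelled Bio-Tdg (n = 1) and one from cells labelled BirA (mock) (n = 1). In this kind of experiment the bacterial ligase BirA puts biotin on a tagged protein, and streptavidin then pulls down the protein with its DNA. The labels name no dose, treatment, time or further allele, and do not say whether the Bio-Tdg cells are a single clone. The mock library was not analysed here, so no background stands beside the values. With 1 library there is no replicate error, and the depth of the library is not known. Every comparison below is a description of one peak list without a test between samples.

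Clustered protocadherins are cell-surface adhesion proteins that neurons use to tell their own processes from those of other cells. In the Pcdha and Pcdhg clusters, each variable exon has its own promoter and is spliced to constant exons shared by the whole cluster. Each Pcdhb gene is a single coding exon. In neurons, single cells use few of these promoters, and the choice is tied to CTCF binding and to DNA methylation of the promoters. Tdg, thymine DNA glycosylase, removes formylcytosine and carboxylcytosine, which arise when Tet enzymes oxidise methylcytosine.

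The RefSeq gene table at hand, which is on GRCm38.p6, lists 58 genes whose names begin with Pcdha, Pcdhb or Pcdhg. They are 14 Pcdha, 22 Pcdhb and 22 Pcdhg genes, in that order along the chromosome. The Pcdha genes run from Pcdha1 to Pcdha12 and end with Pcdhac1 and Pcdhac2. The Pcdhb genes run from Pcdhb1 to Pcdhb22. In the Pcdhg cluster the Pcdhga and Pcdhgb genes alternate in part, and Pcdhgc3, Pcdhgc4 and Pcdhgc5 come last. The table also places Slc25a2, a mitochondrial carrier gene, and Taf7, a gene for a subunit of the general transcription factor TFIID, among the protocadherin genes. Zmat2 is the nearest named protein-coding neighbour before them, and Diaph1, a formin gene that acts in actin assembly, is the nearest after them. The table served for names and order only, since its build differs from that of the peaks. No peak was assigned to a gene, and sections of the window below are defined by the peaks alone. The 84 members correspond to 1.45 peaks per protocadherin gene of that table.

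Tdg peaks were dense in the window. Its density was 90.3 peaks per Mb, with an exact 95% Poisson interval of 72.0 to 112. Over the rest of chromosome 18 it was 22.5 per Mb (21.5 to 23.5), which gives a ratio of 4.01. When peaks less than 5 kb apart were merged, the ratio was 2.49. These intervals cover counting error only and take peaks as independent, so they are too narrow where peaks lie in groups. Peaks covered 8.45% of the window and 2.40% of the rest of the chromosome. The other autosomes together had 30.3 peaks per Mb, with 3.27% covered.

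The window was not the densest place on its chromosome. Chromosome 18 between its first and last peak was divided, outward from the window, into 93 stretches of 930 kb. The 92 others held from 0 to 104 peaks with a median of 13. Of these, 4 held more peaks than the 84 of the protocadherin window and 88 held fewer. One of the 4 was the next stretch after the window, with 104 peaks and 14.0% covered. The stretch just before it held 72 peaks and had 8.98% covered. The dense part of the chromosome therefore reached beyond the window on both sides.

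**Figure D1:**
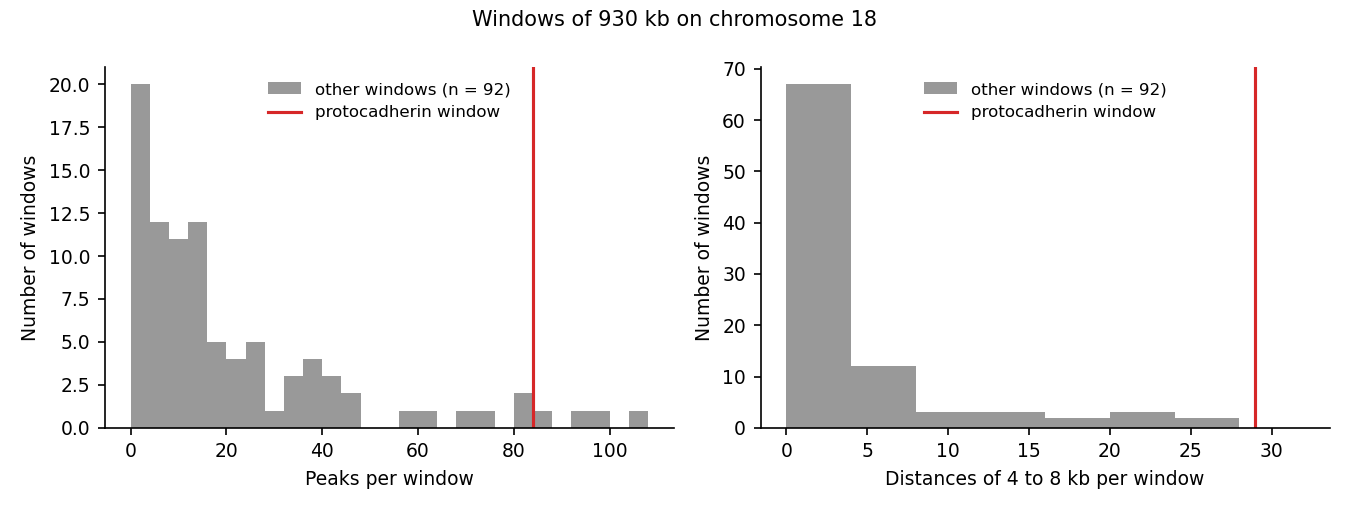
Histograms of the number of peaks (left) and of distances of 4 to 8 kb between neighbouring peaks (right) in the 92 other stretches of 930 kb of chromosome 18, in grey, with the protocadherin window as a red line. The window lies below 4 other stretches in peaks, with 84. In distances of 4 to 8 kb it has 29 and lies above all 92, the highest of which has 27.

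The edges of the window differed. The first member, chr18:37089551-37090845, lay far from any earlier peak, since the nearest one ended 118039 bp before the start of the window. At the far edge the next peak began only 1517 bp after the window's end. The last members thus lie in a crowded stretch that continues past the window.

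The median strength of the members was close to that of the chromosome. The score is the authors' own value per peak and rises with the evidence for a peak. Its median was 520 in the window and 550 over the rest of chromosome 18, with quartiles of 324 and 877 against 333 and 1082. The exact binomial 95% interval of the median was 402 to 633 for the members and 523 to 582 for the rest, so the intervals overlap. Scores of at least 1000 were found for 16 of the 84 members, or 19.0% (exact binomial 95% interval 11.3 to 29.1%), against 27.6% of the 1955 peaks on the rest of the chromosome. The interval of the members holds that background share. At a score of at least 2000 there were 3 members, or 3.57% (0.743 to 10.1%), against 9.67%, a share that also lies inside the members' interval. The dense stretches on both sides had stronger peaks. The median score was 697 in the stretch before the window and 755 in that after it, both above the interval of the members' median. Their shares of peaks with a score of at least 1000 were 37.5% and 39.4%, above the members' interval as well. No test of these differences was made. At the weak end, 16 members scored under 300, or 19.0%, as did 312 of the 1955 other peaks of the chromosome.

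The median width was also close to that of the chromosome. The median member was 816.5 bp wide (interval of the median 679 to 969 bp) and the median peak of the rest 848 bp (827 to 873 bp). The parts of the window differed, with a median of 699 bp for the 44 members before its longest gap and 970 bp for the 40 after it. The narrowest member had 490 bp and the widest 3398 bp. Score and width ran together among the members, with a Spearman's rho of 0.951 over 84 peaks of the same library. For most peaks the score is a function of width and of the number of reads, so the pair is not independent.

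The number of reads in a peak could be read back from score and width for 83 of the 84 members. The 1 without a read number is the member with the highest score, 3100. On the rest of the chromosome, reads were recovered for 1906 of 1955 peaks. Among the 83, the fewest reads in a member were 21 and the most 175. The median was 39 and the quartiles 25 and 65.5, and over the rest of the chromosome the median was 41 and the quartiles 26 and 77. The density of reads had a median of 48.4 per kb in the members and 49.4 per kb in the rest. The densest of the 83 members had 84.9 reads per kb. The quartiles were 43.5 and 58.4 in the members and 43.0 and 60.9 elsewhere. The high density of the window was thus one of peaks per Mb, beside a median read density within peaks close to that of the chromosome. That median joins unlike parts, with 45.7 reads per kb before the longest gap of the window and 53.6 after it.

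**Figure D2:**
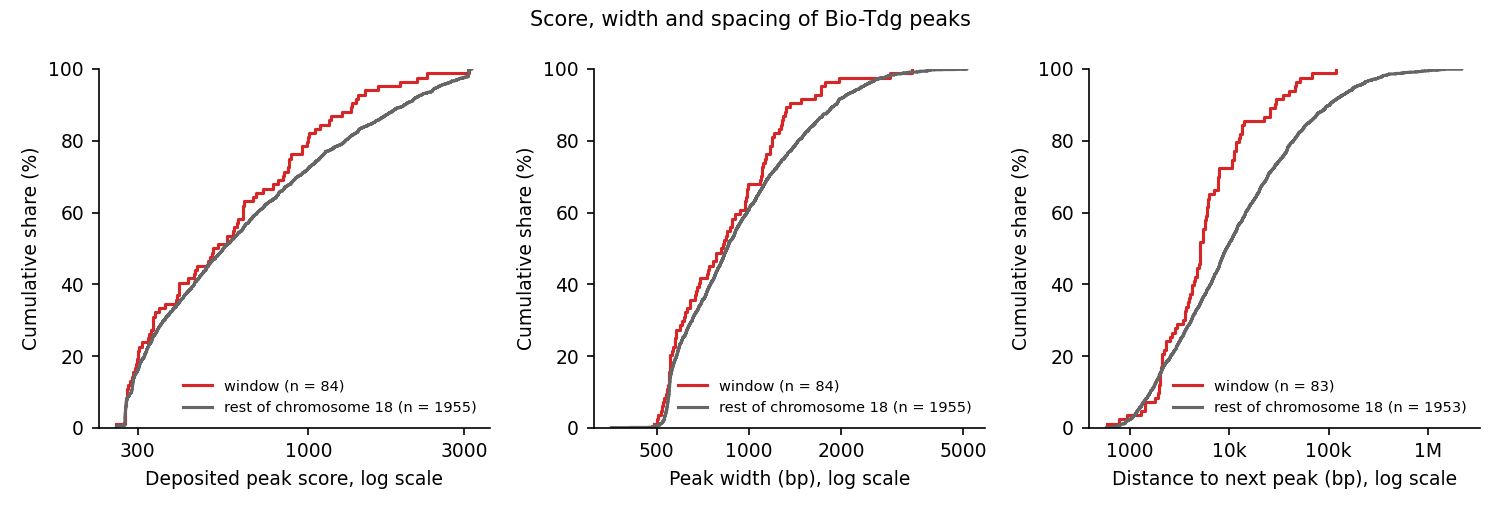
Cumulative shares of score, width in bp and distance between midpoints of neighbouring peaks in bp, all on log axes, for the protocadherin window (red) and the rest of chromosome 18 (grey). The curves for score and width are close up to their medians, of 520 against 550 and of 816.5 against 848 bp, and the window has fewer high values above them, while the distances in the window are shorter, with medians of 5100.5 against 9376.5 bp.

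Neighbouring members lay close together. The median distance between midpoints was 5100.5 bp over 83 distances (interval of the median 4262 to 6037.5 bp), against 9376.5 bp (8611.5 to 10499.5 bp) for neighbours on the rest of the chromosome. Among the 44 members before the longest gap of the window, the median was 7703.5 bp. The upper quartile was 10972 bp in the window and 32914.5 bp elsewhere. As a share of all distances, those under 2 kb were not commoner, with 12.0% in the window and 15.0% elsewhere. Those under 5 kb made up 45.8% in the window and 33.9% elsewhere. Distances of 4 to 8 kb were commoner. They made up 29 of 83, or 34.9% (exact binomial 95% interval 24.8 to 46.2%), against 16.5% (14.9 to 18.3%) on the rest of chromosome 18 and 18.5% on the other autosomes. Within the window they were 11 of 43 distances before the longest gap and 18 of 39 after it. Of these 18, 14 lay in the evenly spaced stretch described below. The range of 4 to 8 kb was chosen after the distances had been seen, so these shares are a description.

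Dense neighbourhoods did not all show this spacing to the same degree. The stretches before and after the window had 28.2% and 23.3% of their distances between 4 and 8 kb, above the share of the chromosome and below that of the window. Among the 30 other stretches of chromosome 18 with at least 20 distances, the share ran from 7.32% to 33.3%, so the highest of them came close to the window's 34.9%. Both that highest share and the 28.2% before the window lie inside the members' interval of 24.8 to 46.2%. The 23.3% after the window lies just below it. That interval takes the distances as independent, and its range of 4 to 8 kb was picked from them. It also leaves out the counting error of the other stretches. These positions are therefore a description and do not separate the window from its neighbours.

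The members fell into 6 sections, separated by 5 distances of more than 40 kb. That limit was set after the values were seen. The shortest distance above it was 45.7 kb and the longest below it 39.7 kb. Distances over 40 kb made up 6.02% of those in the window and 21.4% of those on the rest of the chromosome.

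**Figure D3:**
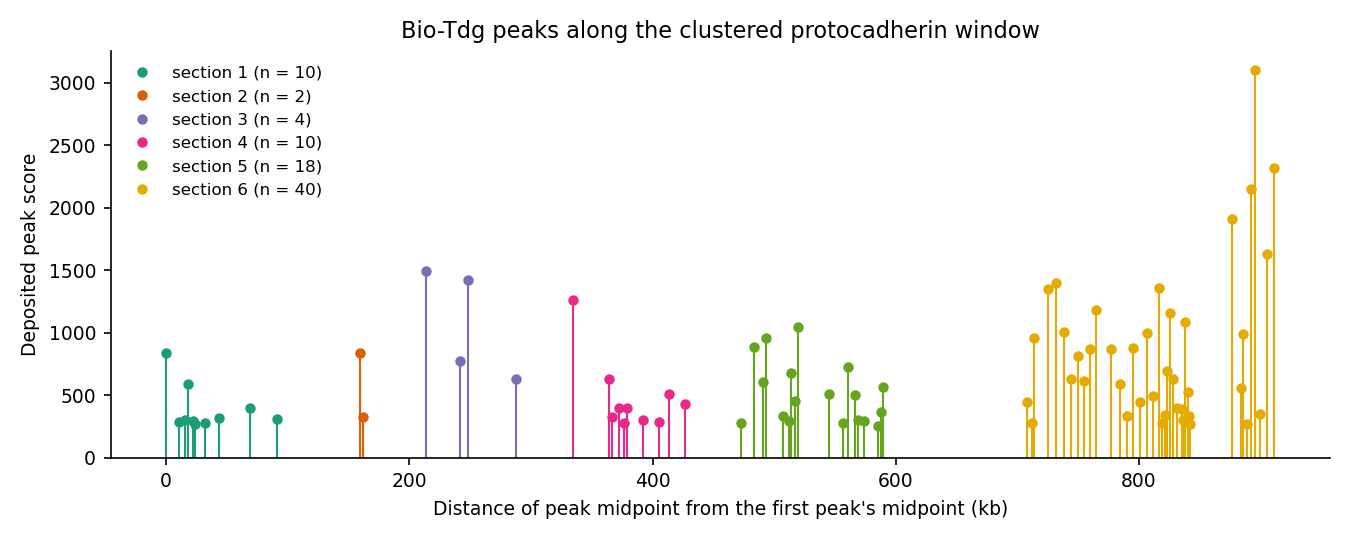
Deposited score of each of the 84 members against the distance of its midpoint from that of the first member in kb, coloured by section. Scores reach at most 1495 in the first 5 sections, and the 5 highest, from 1633 to 3100, lie near the right end of section 6.

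The first section, chr18:37089551-37182120, held 10 peaks, most of them weak. Its first peak had a score of 841 and 66 reads, and the peak chr18:37107402-37108335 a score of 588 and 46 reads. Both lay above the window's medians of 520 and 39 reads. The section as a whole had a median score of 305, a median width of 568.5 bp and a median of 24.5 reads, the lowest of the 6 sections in each of these measures. Of its 10 peaks, 4 scored under 300. Its last peak, chr18:37181502-37182120, had a score of 309 and 25 reads.

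The second section consisted of a pair of peaks, chr18:37249019-37250187 with a score of 837 and 64 reads and chr18:37251421-37252046 with a score of 324 and 26 reads. The pair stood alone, with 67.8 kb to the peak before it and 51.9 kb to the peak after it. Of the distances in the window, only that of the gap described below was longer than these.

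The third section, chr18:37302765-37378349, held 4 widely spaced peaks of higher score. They scored between 633 and 1495, with a median of 1098 and 48 to 109 reads. Its strongest peak, chr18:37302765-37304407, was 1643 bp wide and had 109 reads, the most in the first 5 sections.

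The fourth section, chr18:37424200-37517296, held 10 peaks with a median score of 398 and a median of 32 reads. It opened with its strongest peak, which scored 1265 and held 90 reads. The fifth section, chr18:37562385-37680364, held 18 peaks at a median distance of 4742.5 bp, with a median score of 477 and a highest score of 1046. It contains the weakest member, chr18:37674936-37675487, whose score of 258 is the lowest of the entire list and is shared with 445 other peaks. It held 21 reads. The next 4 members from the bottom held 22 reads each, at scores of 274 to 275, and lay in sections 1, 5 and 6.

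The longest distance of the window followed, from chr18:37679389-37680364 to chr18:37798064-37798805. The midpoints of these peaks lie 118558 bp apart, and 117.7 kb between them have no peak. The peak before the gap had 45 reads and the peak after it 35, so neither edge was strong. Peaks were called at scores down to 258 in this list, and a stretch without a peak does not show that Tdg was absent there.

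The sixth section, chr18:37798064-38002901, held 40 of the 84 members in 204.8 kb. Peaks covered 21.2% of it, against 5.95% of the 590.8 kb from the first member to the peak before the longest gap. Its median score was 663 with 49 reads, against 401 with 32 reads for the 44 members before the gap. Of the 16 members that scored at least 1000, it held 12. The ranges overlapped, with scores of 274 to 3100 after the gap and 258 to 1495 before it. Across the 84 members, score and position had a Spearman's rho of 0.281, from peaks of the same library and with no test.

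The sixth section opened with 3 peaks and then became evenly spaced. From chr18:37814916 to 37907512, a length of 92.6 kb, 16 consecutive peaks gave 15 distances, and 14 of these were between 4 and 8 kb. They form a pair of runs of 8 peaks each, split by a single step of 12427 bp.

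In the first run, chr18:37814916-37855083, the distances had a mean of 5560 bp ± 881 (SD over 7 distances) and ran from 4576.5 to 7052.5 bp. The scores of its 8 peaks were, in order along the chromosome, 1351, 1400, 1009, 630, 811, 611, 871 and 1178. The corresponding reads were 93, 99, 71, 49, 58, 48, 63 and 86. Both ends of the run were stronger than its middle, and all 8 peaks lay above the median score of the window.

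In the second run, chr18:37866292-37907512, the mean distance was 5719.5 bp ± 951 (SD over 7 distances), with a range of 5071 to 7741.5 bp. Its scores were 867, 591, 335, 875, 449, 997, 492 and 1361, with 65, 45, 25, 65, 35, 75, 37 and 95 reads. From the third peak on, weaker and stronger peaks alternated. Mean distances of the runs differed by less than the SD within each. The range of distances that defines both runs also bounds these means and SDs. Their closeness was thus partly set in advance and does not show a shared spacing. The 16 peaks had a median width of 985 bp and a median of 64 reads, and 13 of them scored at least 500.

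**Figure D4:**
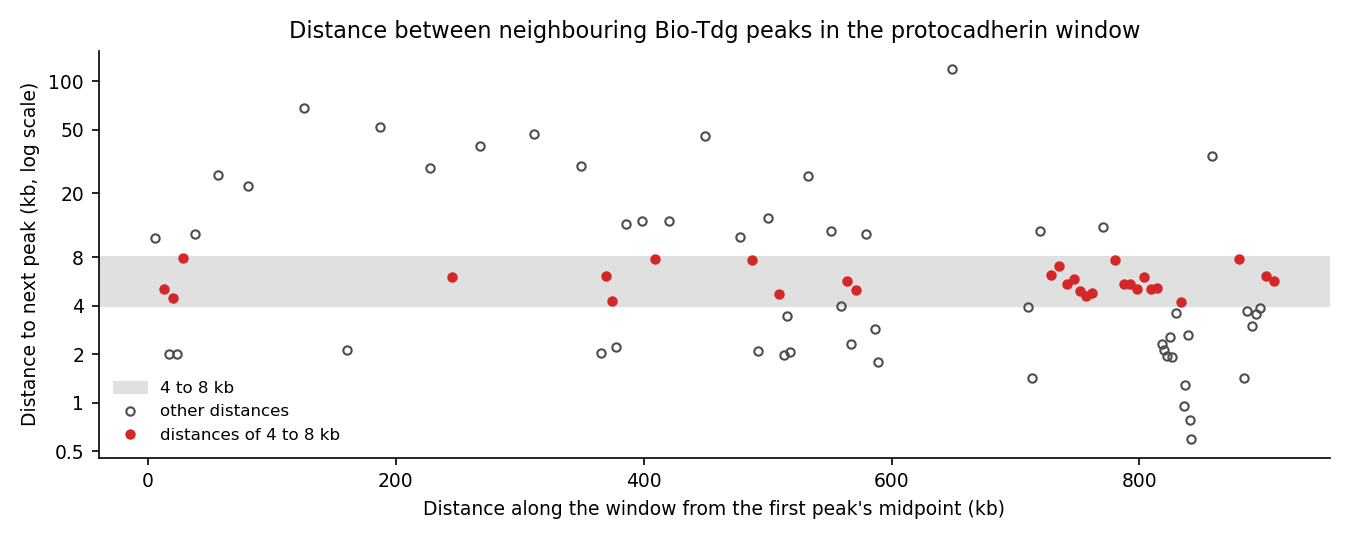
Distance in kb (log axis) between the midpoints of neighbouring members against position along the window in kb from the first member. Red points in the grey band are the 29 distances of 4 to 8 kb, and 14 of them form the nearly level pair of runs in the sixth section, with 1 step of 12427 bp between them.

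Such runs were rare in the list. With a run defined as at least 5 consecutive distances of 4 to 8 kb, the window held 2 runs and the rest of chromosome 18 held 0, its longest having 4 distances. On the other autosomes, 40 runs of this kind occurred among 70188 peaks, and 2 of them had 7 distances or more. The definition was made after the runs in the window had been seen, so these counts describe the list and are no measure of how often chance would give them.

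The even spacing ended at the 8th peak of the second run, where peaks crowded together. That peak and the next 5, chr18:37906259-37918209, lay 1934 to 2569 bp apart. Their scores were 1361, 279, 339, 693, 1155 and 633, so the weakest member of the group adjoins the strongest. A further group of 6 peaks, chr18:37925268-37932130, had distances of 591 to 2633.5 bp and scores from 274.5 to 1084. The 591 bp are the shortest distance of the window. With a limit of 3 kb between neighbours, the window held 3 groups of at least 3 peaks, among 84 peaks in 0.93 Mb. The rest of the chromosome held 87, among 1955 peaks in 86.8 Mb. The largest groups had 6 and 8 peaks.

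After a distance of 34.4 kb, the last 9 members held the strongest peaks of the window. The 5 highest scores all lay here. The peak chr18:37984063-37987460 had a score of 3100, was 3398 bp wide and ranked 18th by width on chromosome 18. Its score lies in the range where reads could not be recovered. Exactly 3100 is the score of 39 peaks of the chromosome and of 1649 in the list, so it does not rank these peaks by strength. The last member, chr18:38000017-38002901, followed with a score of 2315 and 175 reads over 2885 bp. The peak chr18:37981321-37983040 had a score of 2147. Its read density of 84.9 per kb was the highest among the 83 members with recovered reads. The peak chr18:37965395-37967108 scored 1907 with 133 reads, and chr18:37994772-37996743 scored 1633 with 122 reads. Another of the 5 widest members, chr18:37974565-37976332, was wide without being strong, with 81 reads over 1768 bp and 45.8 reads per kb. Between these lay weak peaks as well, such as chr18:37978894-37979444 with a score of 274 and 22 reads.

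Counted in tiles of 100 kb from the start of the window, the members numbered 9, 3, 4, 6, 6, 16, 0, 13 and 22, and the last 30 kb held 5. The tile with 22 peaks had a median score of 510 and the last 30 kb a median of 2147. The tile with the most peaks was thus not the part with the highest median score. These parts differ in length and in peak width, with median widths of 711.5 bp in the tile and 1972 bp in the last 30 kb. Their counts therefore do not compare the bases covered.

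Short distances near 2 kb recurred in the window. Distances of 1.9 to 2.4 kb made up 13 of its 83, or 15.7%, against 5.22% on the rest of chromosome 18 and 5.67% on the other autosomes. Before the longest gap, 11 of 43 distances were under 3 kb, and 9 of these 11 lay between 1.9 and 2.4 kb. After it, 12 of 39 distances were under 3 kb, and 4 of these 12 lay in that range, all within the group of 6 peaks that follows the even runs. All 9 before the gap joined pairs of peaks that had no further peak within 3 kb. Their distances ran from 1980 to 2301 bp, with a mean of 2090 bp ± 109 (SD over 9 pairs). The pairs occurred in sections 1, 2, 4 and 5. The stronger peak came first in some pairs, as in the pair of the second section with 64 and 26 reads, and second in others, as in chr18:37607072-37610065 with scores of 455 and 1046. Isolated pairs of this kind numbered 2 after the gap, and 0 of them had a distance of 1.9 to 2.4 kb. On the rest of chromosome 18 there were 217, of which 50, or 23.0%, had such a distance. Of all distances under 3 kb, 22.7% lay in that range on the rest of the chromosome and 21.2% on the other autosomes. The bounds were set around the pairs after they had been seen, so the differences in shares are a description and not a test.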

How the data were processed

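Values come from the list of peaks deposited by the authors for Bio-Tdg. The tools in the submitters' processing notes are MACS 1.4.1, Bowtie 0.12.7 and CASAVA 1.8, whose roles are not described, and positions were taken as mm9, the build those notes give. Calling threshold, control library and the treatment of reads that match several places, which bears on genes with similar copies, were not given in the sources used here. Each peak has a score that the authors deposited. In MACS 1.4 output it is −10 times the log10 of a p-value. Other deposited values are the start and end, from which width and distance were computed, and positions are printed counting from 1.

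Reads per peak were recovered as the whole number at which the Poisson probability of more reads, at 1 fitted rate of 1.13 reads per kb, gives the score. Of 70722 peaks with a score below 3000, 70713 came within 0.01 score units of a whole number. The other 9 were at most 368 bp wide. The recovery was checked on simulated data. Read numbers would all be 1 higher under a probability that includes the number itself.

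The rest of chromosome 18 runs from its first to its last peak without the window. Peaks are not replicates, so no test was made, and exact binomial and Poisson intervals cover counting error only. Individual peaks were named as the first, the last, the 5 highest and 5 lowest in score, the 5 widest and those beside the 3 longest gaps. Other peaks were chosen after their values were seen. Members and rules were chosen with earlier results of these data known. The tools were matplotlib 3.10.9, pandas 2.3.3, scipy 1.17.1 and numpy 2.4.6 under Python 3.11.15. No mm9 sequence or annotation was used.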

Additional observations from a re-analysis of the deposited data

How the results depend on the processing

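The peak density of the window against the rest of chromosome 18 (ratio 4.01) was 2.77 when only scores of at least 1000 counted, 2.99 against all other autosomes and 2.49 after merging peaks less than 5 kb apart. Its 5 other settings gave ratios within the counting interval of 3.20 to 4.97. The ratio of median distances (0.544) was 0.392 after merging within 1 kb, 0.714 against all other autosomes and 0.822 without the members after the longest gap. Without those members the ratio of median scores (0.946) was 0.730. The ratio of median widths (0.963) kept its direction in each setting and was 0.824 without the members after the longest gap. The longest even run in the window had 6 or 7 distances with limits of 3 to 9, 5 to 8 and 4 to 7 kb, and the longest on the rest of the chromosome 4 or 5. Merging within 5 kb, leaving out the last section and the run limits were added after seeing the data. No paired analysis was possible because the mock was not analysed here and Bio-Tdg has a single library. Depth is not known, and the weakest peaks hold 21 reads, so a weaker signal would go unlisted.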

Other observations

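Even runs as long as those of the protocadherin window occurred at 2 other places on the autosomes. They were chr17:35958011-36005780, with 8 peaks and 7 distances of 4820 to 7136.5 bp, and chr4:140561576-140610245, with 9 peaks and 8 distances of 4049 to 7456 bp. Their mean distances were 6212 bp ± 853 and 5964 bp ± 1234 (SD over distances). These places were picked by the same rule as the runs in the window, after the values were seen, and no gene is given for them. The limits of that rule, 4 to 8 kb, also bound these means and SDs.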
